A study of Mus musculus with 2 samples.

Results

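The translation initiation and elongation factors of mouse were compared between 2 cell populations of dorsal skin, one sorted for high Lgr5 reporter signal and one for high Lgr6 reporter signal. Members were all non-control probes whose gene name in the scanner tables begins with Eif and a digit, or with Eef1 or Eef2, without the sex-linked pair Eif2s3x and Eif2s3y. This gave 139 of 41174 probes and 62 of 27729 genes. Of the 62 genes, 58 carry names of translation factors or their direct regulators, and 4 are Argonaute genes that the array design still carries under the older Eif2c names. Measured values were obtained for 47 of the 62 genes, 46 of the 58 and Ago2, from 65 probes, out of 6195 genes measured on the arrays.

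The Lgr5-high cells came from Lgr5-EGFP-ires-CreERT2 knock-in mice and the Lgr6-high cells from Lgr6-EGFP-ires-CreERT2 knock-in mice, so that each population is defined by GFP driven from that one receptor's own locus, and both carry a GFP and CreERT2 cassette. Each sort pooled 3 mice, and age, sex and strain are not given in the sources used here. Lgr5-high RNA carried Cy3 and Lgr6-high RNA Cy5 on array 1, with the opposite labelling on array 2. Whether these arrays hold separate RNA pools is not stated in the labels, so they were treated as 1 replicate measured in both dye orientations. The SD over the 2 arrays may then be technical only, and no test between the populations was possible.

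Translation of an mRNA begins when the small ribosomal subunit, carrying the initiator tRNA with eIF2 and GTP, is held by eIF1, eIF1A, eIF3 and eIF5, is brought to the capped end of the mRNA by the eIF4F complex and scans to the start codon. eIF2B recharges eIF2 with GTP, and kinases of the stress response block that step by phosphorylating eIF2. Elongation then runs on eEF1A, which delivers aminoacyl-tRNAs and is recharged by the eEF1B subunits, and on eEF2, which moves the ribosome along. Skin stem cells are known for rates of protein synthesis that are kept low compared with those of their dividing progeny.

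The probes of 5 genes carry most of the differences described below, and the first 30 of their 60 bases are shown so that the transcript stretch behind each ratio can be looked up. The positions are those the array files give on mouse build mm9. Whether they lie in coding or untranslated sequence was not determined here.
Eif1: tctgaagcttaagtgaggatttccttgcaa
Eif1b: gcgtttatttaatcattcagacttccactc
Eif6: tgagctagtctgtaccagatgctggcagtg
Eif3j1: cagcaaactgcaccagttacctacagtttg
Eif4ebp1: cagcctccggagcacacccatctttcctta
The Eif1 probe lies at chr11:100182689-100182749 on the plus strand and the Eif1b probe at chr9:120404173-120404232, also on the plus strand. The Eif6 probe lies at chr2:155645718-155645777 on the minus strand. The Eif3j1 probe is at chr2:121878647-121878706 and the Eif4ebp1 probe at chr8:28385887-28385946, both on the plus strand. The longest run of bases shared by the full Eif1 and Eif1b probes was 6, so the probes of these close relatives are unlike in sequence.

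Each array held 43379 probe spots and none was saturated. A larger share of Cy3 signals (31.6% and 33.3%) than of Cy5 signals (15.3% and 16.2%) stood well above background. Lgr5 itself was lower in Lgr6-high, with a mean log2 ratio of -1.83 ± 0.12 (SD over 2 arrays), whereas neither Lgr6 probe stood well above background for either population on both arrays. In the Lgr5-high direction were all 5 hair bulge and germ markers, and in the Lgr6-high direction the 4 measured upper follicle markers. Those 5 include Lgr5, whose reporter defined the sort.

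All ratios below are log2 of Lgr6-high over Lgr5-high, after background correction and loess normalisation within each array. A gene is represented by its brightest probe that stood well above background for at least 1 population on both arrays. A gene is called higher in a population when its mean ratio was at least 2-fold and neither array fell short of a log2 ratio of 0.5 in that direction. In pooled bulk RNA of this kind, fewer cells of a type and less RNA per cell cannot be told apart.

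Of the 47 measured members, Eif1, Eif3j1 and Eif6 were called higher in Lgr6-high and Eif4ebp1 was called higher in Lgr5-high. The 3 members called for Lgr6-high are 6.38% of those measured, beside 7.28% of all measured genes. The single member called for Lgr5-high is 2.13%, beside 4.76% of all measured genes. Both shares were below the background of the arrays, so the factors as a list did not hold more called genes than the rest. All 4 calls were lost without background subtraction, with outlier-marked spots kept in the background fit and with median centring in place of loess, although the sign of each mean stayed the same. Under the first 2 of these the means were 0.83 and 0.71 for Eif1, 0.89 and 0.84 for Eif6, 0.80 and 0.82 for Eif3j1, and -0.88 and -0.69 for Eif4ebp1. Calls over all measured genes also fell in the 3 settings, from 451 and 295 to 212 and 204, 124 and 151, and 134 and 57.

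Most members differed little. The median member ratio was -0.08, and that of all measured genes -0.05. A mean ratio within 0.5 of 0 was found for 30 of 47 members (63.8%) and for 3921 of 6195 genes (63.3%). The members spanned -1.0 to 1.19, while all genes spanned -3.65 to 5.22. The ratio had the same sign on both arrays for 31 members (66.0%) and for 72.5% of all genes, and the median SD between arrays was 0.30 for members and 0.23 for all genes. For the other 16 members the sign differed between the arrays, and no direction was read from those. Above background in both populations on both arrays were 44 of the 47, so nearly all were detected on both sides. The same held for 4483 of the 6195 genes, whose median log2 intensity was lower (7.79, beside 8.60 for members).

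The scanner software's own ratios, which use its own background subtraction and dye normalisation, gave a wider spread and more calls in general. With them 5 members (10.6%) were called for Lgr6-high, namely Eif1, Eif2s2, Eif3j1, Eif5b and Eif6, beside 15.4% of all genes. In the Lgr5-high direction Eif1b and Eif4ebp1 were called (4.26%), beside 15.5% of all genes. Of all called genes, 451 lay on the Lgr6-high and 295 on the Lgr5-high side with loess, and 957 and 958 with the scanner's ratios. All 4 genes called on the loess ratios were among these 7.

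**Figure D1:**
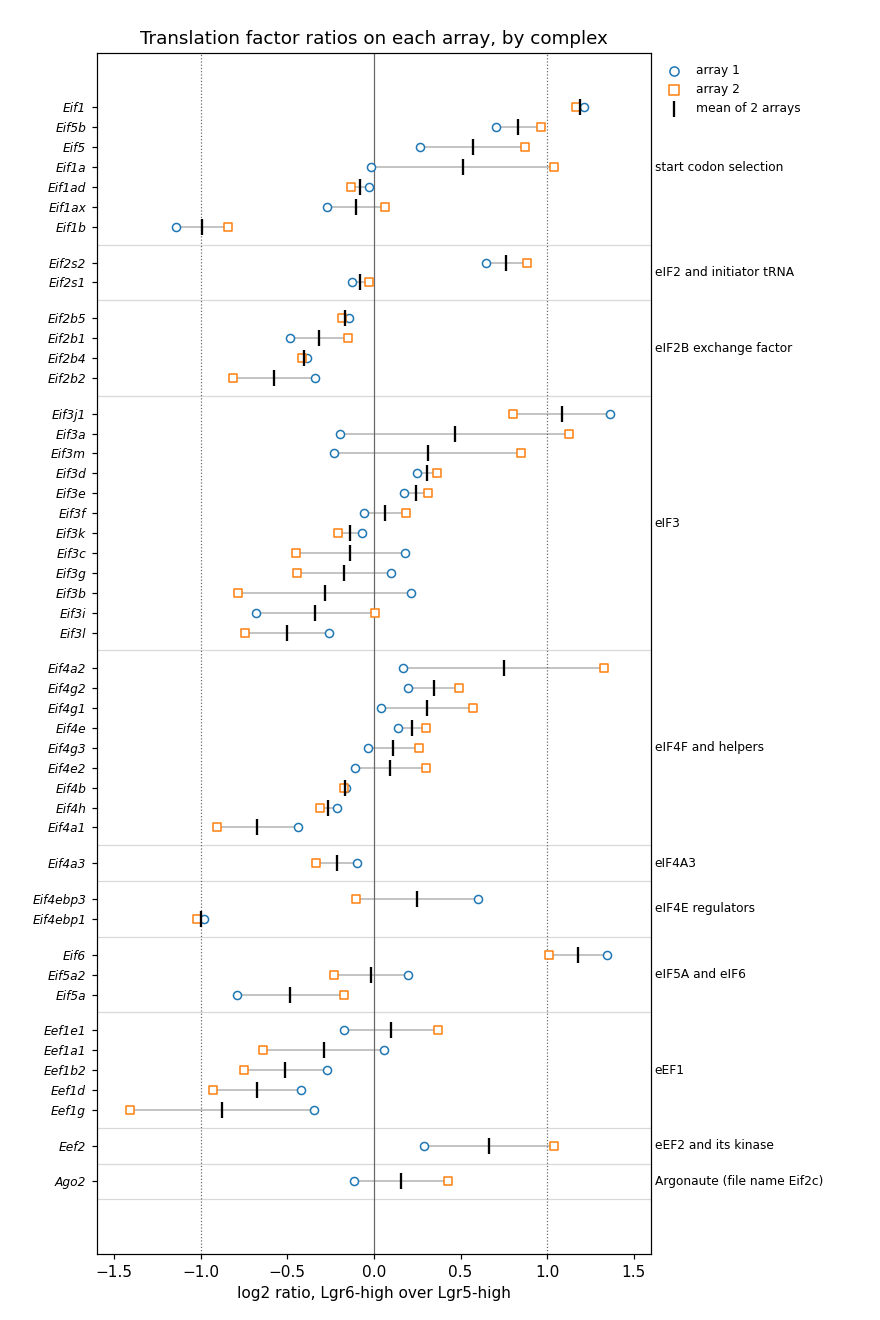
Log2 ratio of Lgr6-high over Lgr5-high (horizontal axis) for each of the 47 measured members, grouped by factor complex. Circles are array 1, squares array 2, black bars the mean of the 2 arrays, and dotted lines mark a 2-fold difference. Eif1, Eif6 and Eif3j1 have means past the upper line, Eif4ebp1 lies at the lower line, and the 4 eIF2B subunits all lie left of 0.

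Among the factors that select the start codon, Eif1 stood apart. It encodes eIF1, which keeps the scanning ribosome open until a proper start codon is paired. The normalised log2 signal of its probe was 12.32 and 12.27 in Lgr6-high on arrays 1 and 2, and 11.11 on both arrays in Lgr5-high. The ratios were 1.21 and 1.17, with a mean of 1.19 ± 0.03 (SD over 2 arrays), or 2.28-fold. The scanner's mean ratio was 1.47. A second Eif1 probe gave a mean of only 0.34, and with both probes averaged the gene was not called; the array files place that probe on chromosome 1, not 11.

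The other members of this group pointed in both directions. Eif1b, a close relative of Eif1, had the lowest mean at -0.99 ± 0.22, just inside the 2-fold minimum, with -1.15 on array 1 and -0.84 on array 2. Its log2 signal was 7.49 and 7.87 in Lgr6-high and 8.64 and 8.71 in Lgr5-high. Eif5b, the GTPase that joins the ribosomal subunits, had a mean of 0.83 ± 0.19, and Eif5, the GTPase activator of eIF2, 0.57 ± 0.43. Both were on the Lgr6-high side on each array and neither passed the rule. The genes named after eIF1A lay close to 0 or differed between arrays. Eif1a gave -0.02 on array 1 and 1.04 on array 2, whereas its X-linked counterpart Eif1ax had a mean of -0.10 ± 0.24 and Eif1ad one of -0.08 ± 0.07, which turned to 0.03 with median centring. Eif1ax is the current name, by accession, of the probes that the files call Eif1ay.

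The subunits of eIF2, which bind the initiator tRNA, did not move alike. Eif2s2, the beta subunit, had log2 signals of 9.66 and 10.24 in Lgr6-high and 9.01 and 9.36 in Lgr5-high. Its ratios were 0.65 and 0.88 (mean 0.76 ± 0.17), below the 2-fold minimum, and 1.04 by the scanner's ratios, above it. A second Eif2s2 probe gave a mean of 0.08. Eif2s1, the alpha subunit that the stress kinases phosphorylate, had a mean of -0.08 ± 0.07, whose sign turned with median centring (0.14). The gamma subunit genes were left out by the choice of members, and Eif2a, a separate initiator tRNA binding protein, was not measured.

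All 4 measured subunits of eIF2B, the exchange factor that recharges eIF2, lay on the Lgr5-high side on both arrays, none by 2-fold. Their median was -0.36. Eif2b2, the brightest, had log2 signals of 9.19 and 8.83 in Lgr6-high and 9.53 and 9.65 in Lgr5-high, with ratios of -0.34 and -0.82 (mean -0.58 ± 0.34). The means were -0.40 ± 0.02 for Eif2b4, -0.32 ± 0.24 for Eif2b1 and -0.17 ± 0.03 for Eif2b5. These correspond to differences of 1.12-fold to 1.49-fold. The means stayed negative under each of the other scalings tried, and by the scanner's ratios they lay between -0.59 and -0.44. Across all measured genes 38.6% were negative on both arrays, so a negative sign was common. Eif2b3 did not meet the signal requirement, and neither did the 4 eIF2 kinase genes Eif2ak1 to Eif2ak4. No ratio was therefore read for the enzymes that act on this step.

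Of the 13 subunit genes of eIF3, the large scaffold on the small ribosomal subunit, 12 were measured. Of these 6 had positive and 6 negative means, with a median of -0.04 (0.15 by the scanner's ratios), and the signs of Eif3c, Eif3f and Eif3g changed under at least 1 other scaling. Eif3j1, whose product is a loosely bound subunit at the mRNA entry channel, was the only one called. Its log2 signal was 9.5 and 9.47 in Lgr6-high and 8.13 and 8.67 in Lgr5-high. The ratios were 1.36 and 0.80 (mean 1.08 ± 0.40), and a second probe of the gene gave a mean of 1.11. Array 2 alone would not have passed the 2-fold minimum. The files name the gene Eif3j, and RefSeq lists a near copy, Eif3j2, whose transcripts these probes may also read.

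The core of eIF3 held no further call. The brightest subunit, Eif3g, had log2 signals of 12.32 and 12.04 in Lgr6-high and 12.22 and 12.49 in Lgr5-high, which overlap. Eif3l was lowest at -0.50 ± 0.34, with both arrays negative. Eif3d (0.31 ± 0.08) and Eif3e (0.24 ± 0.10) were slightly positive on both arrays. In 3 subunits the arrays lay over 1 log2 unit apart. Eif3a, the largest scaffold subunit, gave -0.20 and 1.13, Eif3m -0.23 and 0.85, and Eif3b, another scaffold subunit, 0.22 and -0.79. No direction can be given for them. Eif3h was left out because its only probe carried an outlier mark on array 2. On array 1 it had a ratio of -0.08.

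In the cap-binding complex eIF4F and its helpers, 9 of 10 genes were measured and none was called. Its 3 working parts are the cap-binding protein eIF4E, the scaffold eIF4G and the RNA helicase eIF4A. Eif4e had a mean of 0.22 ± 0.11, and its relative Eif4e2 one of 0.09 ± 0.29. The scaffold genes Eif4g1, Eif4g2 and Eif4g3 had means of 0.31 ± 0.38, 0.34 ± 0.21 and 0.11 ± 0.21. All 5 means lay between 0 and 0.5. The helicase cofactors Eif4b and Eif4h were slightly negative, at -0.17 ± 0.01 and -0.26 ± 0.07.

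The helicase genes lay on opposite sides. Eif4a1 had log2 signals of 10.85 and 11.19 in Lgr6-high and 11.29 and 12.10 in Lgr5-high, with ratios of -0.44 and -0.91 (mean -0.67 ± 0.33). A second Eif4a1 probe gave a mean of 0.16. Eif4a2 had log2 signals of 8.27 and 9.51 in Lgr6-high and 8.10 and 8.18 in Lgr5-high, with ratios of 0.17 and 1.33 (mean 0.75 ± 0.82). The signs held on both arrays for the brightest probes, but the spread of Eif4a2 exceeded its mean. The related helicase of the exon junction complex, Eif4a3, had ratios of -0.10 and -0.33.

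Eif4ebp1 was the only member called for Lgr5-high. It encodes 4E-BP1, which in its unphosphorylated form binds eIF4E and keeps it from eIF4G, and which mTOR complex phosphorylation releases. Its log2 signal was 8.50 and 8.46 in Lgr6-high and 9.48 on both arrays in Lgr5-high. The ratios were -0.98 and -1.02, with a mean of -1.0 ± 0.03, or 2.0-fold, and the scanner's mean ratio was -1.03. The mean sat at the 2-fold minimum, and array 1 alone would have missed it. Its relative Eif4ebp3 gave a mean of 0.25 ± 0.50, with array signs that differed, and Eif4ebp2 and the eIF4E transporter gene Eif4enif1 were not measured. The protein's phosphorylation, on which its activity depends, is not seen by an RNA array.

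**Figure D2:**
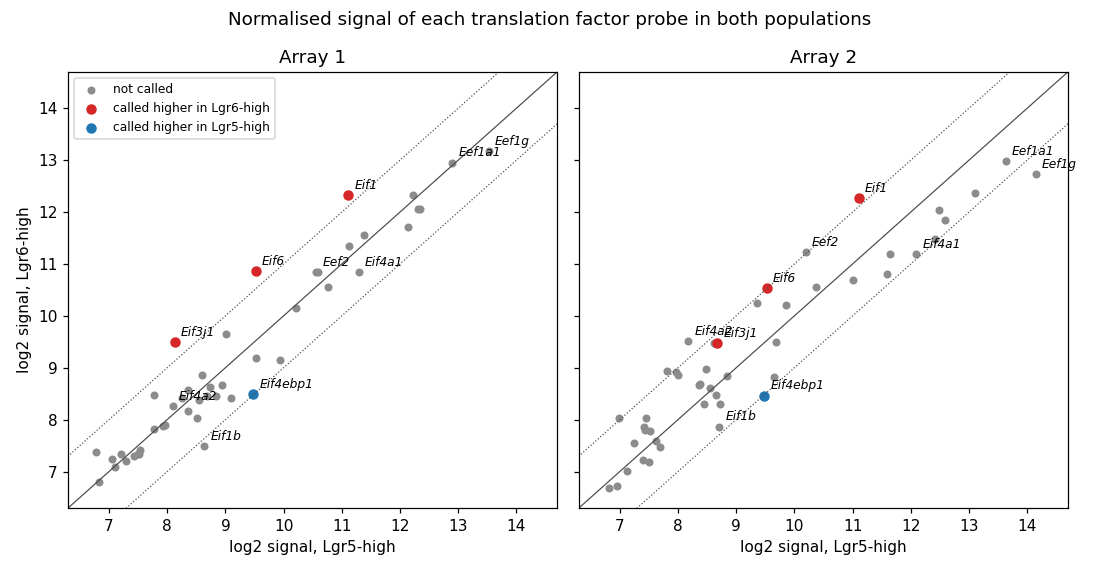
Normalised log2 signal of each measured member in Lgr5-high (horizontal axis) and Lgr6-high (vertical axis), 1 panel per array, with 1 point per gene. The solid line marks equal signal and the dotted lines a 2-fold difference, red points are called for Lgr6-high and the blue point for Lgr5-high. Eif1, Eif6 and Eif3j1 lie above the diagonal and Eif4ebp1 below it on both arrays.

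Eif6 was higher in Lgr6-high. Its product, eIF6, keeps free large ribosomal subunits from joining small ones and also serves in the making of large subunits. Its log2 signal was 10.87 and 10.54 in Lgr6-high and 9.52 on both arrays in Lgr5-high. The ratios were 1.35 and 1.01, with a mean of 1.18 ± 0.24, or 2.27-fold. A second probe gave a mean of 0.69, in the same direction, and with both probes averaged (0.94) the gene fell short of the 2-fold minimum. The eIF5A genes, whose product carries the amino acid hypusine and relieves stalled ribosomes, did not pass the rule. Eif5a had a mean of -0.48 ± 0.43 and Eif5a2 one of -0.02 ± 0.30, with array signs that differed.

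For elongation, 5 of 6 eEF1 genes and Eef2 were measured, and none was called. The means of 4 of the 5 eEF1 genes were negative, with a median of -0.51. Eef1g, the brightest member of the list and a structural subunit of eEF1B, had log2 signals of 13.18 and 12.73 in Lgr6-high and 13.52 and 14.14 in Lgr5-high. Its ratios were -0.35 and -1.41 (mean -0.88 ± 0.75). The exchange subunit genes Eef1d and Eef1b2 had means of -0.68 ± 0.36 and -0.51 ± 0.34. All 3 lay on the Lgr5-high side on both arrays.

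Eef1a1, which encodes the tRNA-delivering factor, had a mean of -0.29 ± 0.49 with array signs that differed, and turned to 0.02 by the scanner's ratios, while a second probe gave 0.22. Eef1e1, a component of the multi-synthetase complex despite its name, was near 0 at 0.10 ± 0.39 and at -0.02 by the scanner's ratios. By the scanner's ratios the eEF1 median was -0.21, without background subtraction it was -0.93, and with outlier-marked spots kept in the background fit it was -1.43, so its size depended on the processing. Eef2, the translocase, lay on the other side, with log2 signals of 10.85 and 11.23 in Lgr6-high and 10.56 and 10.19 in Lgr5-high. Its ratios were 0.29 and 1.04 (mean 0.66 ± 0.53), a second probe gave 0.70, and the scanner's mean was 0.92. The kinase gene Eef2k and the muscle and nerve form Eef1a2 were not measured. Ago2, the Argonaute member, had a mean of 0.16 ± 0.38, with array signs that differed and a mean of -0.02 when outlier-marked spots were kept in the background fit.

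The bright factors differed between the arrays in a way that touches the eEF1 values. A total of 10 members fell in the brightest 5% of measured genes. Their median loess ratio was -0.10 on array 1 and -0.75 on array 2, and all 10 were lower on array 2. The same held for all 310 genes of that brightness, with medians of 0.24 and -0.79, of which 281 were lower on array 2. By the scanner's ratios the medians of the 10 members were -0.19 and -0.15, and 3 of them were lower on array 2. The other 37 members had loess medians of -0.07 and 0.26. Eif1, with 1.17 by loess and 1.72 by the scanner's ratio on array 2, is among the 10, and so are Eif3b, Eif3c, Eif3g and Eif3l. The part of this brightness pattern in the values of Eif1 and its gap to Eif1b, and of the bright eIF3, eIF4A and eEF1 genes, was not tested.

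**Figure D3:**
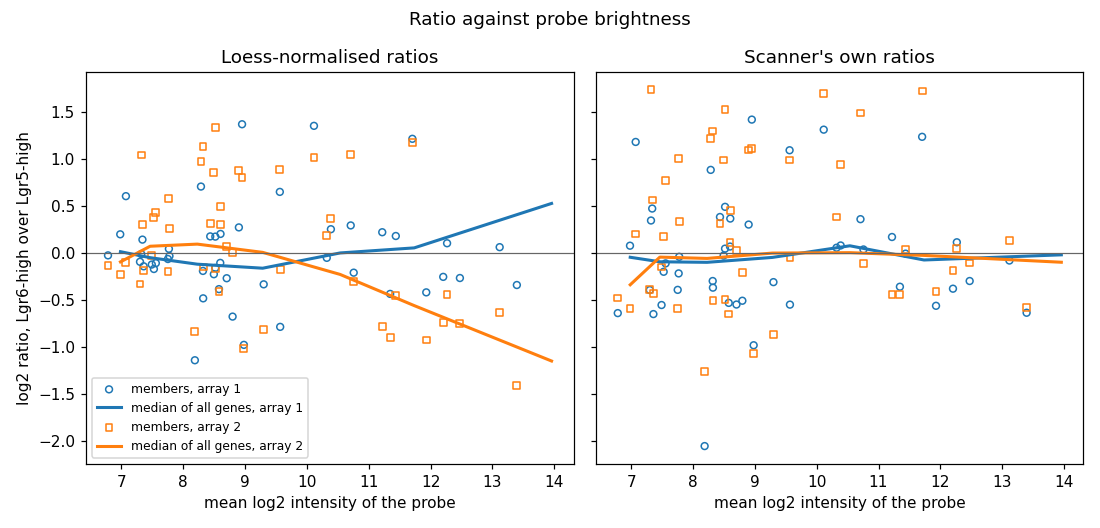
Log2 ratio of Lgr6-high over Lgr5-high (vertical axis) against the mean log2 intensity of the probe (horizontal axis), with loess ratios on the left and the scanner's own ratios on the right. Circles are members on array 1, squares members on array 2, and lines the median of all measured genes at that brightness. At the bright end the loess lines part, and array 2 runs below 0, while the scanner's lines stay near 0.

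In 7 pairs of closely related members both genes were measured. Their differences within an array do not depend on a shift common to all genes of that array. A correction that varies with brightness, such as loess, can still change them where the 2 genes differ in brightness. These pairs were picked out after the values were seen, and their probes shared runs of at most 8 bases. Eif1 and Eif1b showed the widest gap. The ratio of Eif1 exceeded that of Eif1b by 2.36 on array 1 and 2.01 on array 2 (mean 2.18 ± 0.25), by 3.14 with the scanner's ratios, and by 1.38 to 2.08 under the other scalings. Eif4ebp1 lay below Eif4ebp3 by a difference of -1.25 ± 0.47, and Eif4a1 below Eif4a2 by one of -1.42 ± 1.15, in which the arrays gave -0.61 and -2.23. The gaps of the other 4 pairs were under 1 log2 unit, from -0.46 ± 0.74 for Eif5a against Eif5a2 to 0.62 ± 0.51 for Eif1a against Eif1ax.

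Several probes passed for 16 members, and they show how far a ratio depends on the probe. The probe means of a gene lay within 0.5 of each other for 10 of the 16. Those of Eif3a (0.47 and 0.48), Eif3j1 and Eef2 were nearly equal. In 5 genes, Eif3c, Eif4a1, Eif4e, Eif4g3 and Eef1a1, the probe means had both signs. The 4 passing probes of Eif3c spanned -0.52 to 0.19.

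**Figure D4:**
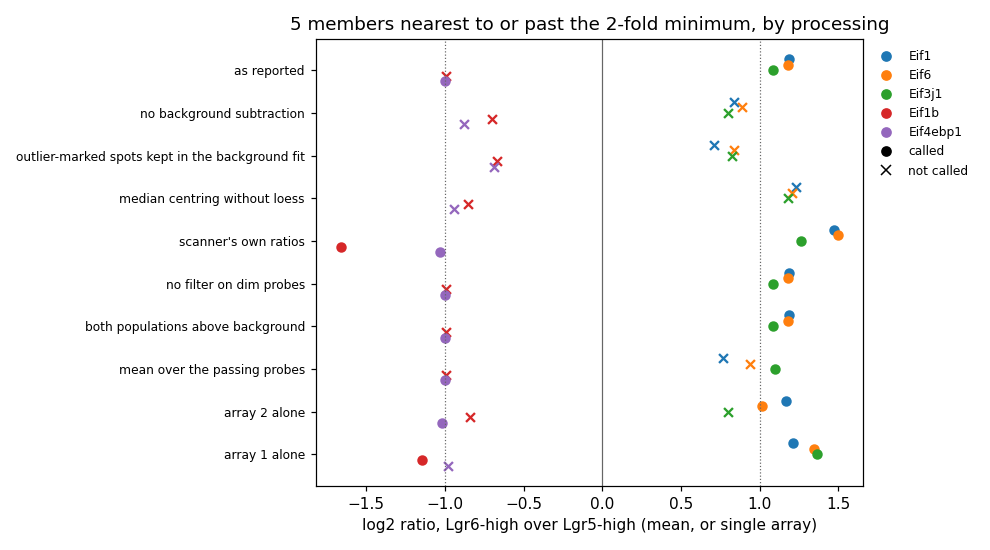
Log2 ratio of Lgr6-high over Lgr5-high (horizontal axis) for Eif1, Eif6, Eif3j1, Eif1b and Eif4ebp1 under each way of processing the arrays. Filled circles are called, crosses are not, and dotted lines mark a 2-fold difference. The direction of the mean was kept in each of the settings drawn, while all calls were lost without background subtraction, with outlier-marked spots kept and with median centring.

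Genes that act on the factors were read from a list of 51 genes, of which 38 were measured. Of these 3 were called for Lgr6-high, beside 7.28% of all measured genes, and 1 for Lgr5-high, beside 4.76%, with a list median of -0.02. The counts are near or below what those shares give for a list of this size, so the calls are described gene by gene and nothing is read from their number. Sesn2, a stress-induced inhibitor of mTOR complex signalling, had ratios of 2.52 and 3.07 (mean 2.80 ± 0.39). Rheb, the GTPase that switches that complex on, had ratios of 1.04 and 1.26 (mean 1.15 ± 0.16). These opposing regulators were thus both on the Lgr6-high side. Median centring in place of loess ended both calls, and that of Rheb was also lost without background subtraction and with outlier-marked spots kept. Of the kinase side itself, Mtor, Rptor, Tsc1, Rps6kb1 and Rps6kb2 were not measured.

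In the response to eIF2 phosphorylation, 8 of 9 genes were measured, with a median of 0.41 and 1 call. Ppp1r15a, which directs a phosphatase to eIF2, had ratios of 0.94 and 1.82 (mean 1.38 ± 0.62), and the call was lost with array 1 alone, with outlier-marked spots kept and with median centring. None of the other 7 was called on the loess ratios. By the scanner's ratios Atf4 (1.40), Ppp1r15b (1.03) and Nck1 (1.06) were called for Lgr6-high, beside 15.4% of all measured genes. Atf4, the transcription factor made when eIF2 is phosphorylated, was also called with array 1 alone and at a 1.5-fold minimum.

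In the remaining roles the list held 1 call among 23 measured genes on the loess ratios. Among 7 measured termination and rescue genes, Pelo, which frees ribosomes stalled without a stop codon, was called for Lgr5-high with ratios of -1.06 and -1.15 (mean -1.10 ± 0.06), a call that was lost without background subtraction, with outlier-marked spots kept, with median centring and with probes averaged. None of 7 measured cap and poly(A) partners was called, and the brightest, the poly(A)-binding protein gene Pabpc1, gave -1.09 and 0.49, opposite on the 2 arrays. Among 5 genes that modify eIF5A and eEF2 none was called, and the brightest was Dohh, the enzyme that completes hypusine (mean -0.12 ± 0.52). Of 4 measured eEF1-associated genes none was called either, with Tpt1 the brightest at 0.44 ± 0.71. By the scanner's ratios Dph5 (1.26) was called for Lgr6-high. Pelo, Eefsec (-1.62) and Mars1 (-1.16) were called for Lgr5-high by them, beside 15.5% of all measured genes.

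Markers of other cells and of dividing cells moved with the comparison. Of 6 fibroblast markers 5 were measured, with summed linear signals of 2930 and 1710 in Lgr5-high and 667 and 296 in Lgr6-high. Col3a1, Dcn and Lum were at background in Lgr6-high on both arrays, and 4 of the 5 were called for Lgr5-high. Of 6 measured cell cycle markers 4 were called for Lgr5-high, with summed signals of 6650 and 7010 against 3280 and 3060. Also called for Lgr5-high were both red cell markers, Dct (-1.58) as the 1 measured of 4 melanocyte markers, and Tagln (-3.02) as 1 of the 2 measured of 6 endothelial and mural markers. Acta2, the other measured one, went the opposite way with ratios of 0.60 and 1.19 (mean 0.90) and was not called. All 4 leukocyte markers stayed unmeasured. The part of these differences in the Eif4ebp1, eIF2B and eEF1 values on the Lgr5-high side was not tested. On the Lgr6-high side, the 2 measured Schwann cell markers were both called, Mbp with a mean of 1.85 and Pmp22 with one of 2.60. Their summed signals were 270 and 388 in Lgr5-high and 1550 and 1940 in Lgr6-high. The 5 keratinocyte markers had summed signals of 59100 and 120000 in Lgr5-high and 227000 and 111000 in Lgr6-high, which differ in order between the arrays. By the scanner's ratios all 5 were positive on both arrays, among them Krt5 with 1.07 and 1.17 and Krt14 with 1.65 and 1.06, and by the loess ratios Itga6 was called for Lgr6-high. The part of the Schwann cell and keratinocyte differences in the Eif1, Eif3j1 and Eif6 values was not tested.

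Members without a measured ratio were Eif2a, Eif2b3, Eif2ak1, Eif2ak2, Eif2ak3, Eif2ak4, Eif3h, Eif4e3, Eif4ebp2, Eif4enif1, Eef1a2, Eef2k and the Argonaute genes Ago1, Ago3 and Ago4. Of the 139 member probes, 39 did not rise well above background in either population on either array. Apart from Eif3h, these genes had no probe that met the signal requirement, which asks for the same population above background on both arrays. Some probes, as of Eif2ak3, Eif2ak4 and Eif4ebp2, stood above background only in Lgr5-high on array 1 and Lgr6-high on array 2. In both cases that population carried Cy3. No ratio was read for these genes, and whether they differ was not determined.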

How the data were processed

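The deposited scanner tables, 1 for each array, hold the mean spot intensity and local background intensity in both channels on a linear scale. They also hold a log10 ratio, Cy5 over Cy3, that the scanner software computed for the authors after its own background and dye correction. Per the file headers the images were read with Agilent Feature Extraction 10.5.1.1, and per the submitters' processing notes with 9.5.3. The deposited value table held the same log10 ratios, turned to Lgr6-high over Lgr5-high.

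Intensities were background-corrected with normexp (offset 50, fitted without outlier-marked spots) and normalised by loess (span 0.3, controls at weight 0) in limma 3.58.1 under R 4.3.3. Ratios were turned by the dyes in the labels and converted to log2, and spots of a probe were averaged. Outlier-marked and control spots were left out. Signals per population were taken after quantile scaling of average intensity. Of the member probes, 114 were named by accession, 18 by symbol and 7 by synonym from a RefSeq table, used for names only. Per-array values were given for members called, for those with arrays over 1 log2 unit apart and for the brightest of each complex; Eif1b was added after its values were seen. The calling rule was tested on simulated data. Members and gene lists were chosen with earlier results of these data known. Alternatives covered background, normalisation, dim-probe filters, the probe rule, the fold minimum, limma's test and single arrays.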

Additional observations from a re-analysis of the deposited data

How the results depend on the processing

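No result turned its direction while called. Over all alternatives, single genes lost a call 27 times and gained one 23 times, and uncalled genes changed sign 58 times; several alternatives change only the filter or the rule and leave a gene's value as it was. The 3 factor calls for Lgr6-high became 0 without background subtraction, with outlier-marked spots kept in the background fit and with median centring, 1 with probes averaged, and 5 both with the scanner's ratios and with a 1.5-fold minimum. The 1 call for Lgr5-high became 0 in those first 3 settings and 2 with the scanner's ratios or a 1.5-fold minimum. Single arrays gave 3 to 6 calls for Lgr6-high (6 from array 2 alone) and 1 to 2 for Lgr5-high. Over all measured genes, 451 calls for Lgr6-high and 295 for Lgr5-high became 212 and 204 without background subtraction. They became 124 and 151 with outlier-marked spots kept, and 134 and 57 with median centring. With probes averaged they were 416 and 277, with the scanner's ratios 957 and 958, and with a 1.5-fold minimum 754 and 709. Array 1 alone gave 434 and 315, and array 2 alone 611 and 471. Members called by limma, which takes the 2 arrays as replicates, numbered 3 and 1, beside 458 and 302 of all genes. With 1 replicate in both dye orientations this is no test between the populations. The loss with median centring lies in its construction: without loess the arrays took opposite signs, with Eif1 at -1.26 and 3.72. For the other changes the cause was not tested.

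The translation factor median log2 ratio of -0.0783 became 0.0303 with median centring, 0.00989 with the scanner's ratios, -0.0100 without a filter on dim probes and -0.0488 with both populations above background, and lay between -0.0686 and -0.0293 on single arrays. The pathway list's 3 calls for Lgr6-high became 1 with outlier-marked spots kept, 0 with median centring and 7 with the scanner's ratios. Its 1 call for Lgr5-high became 0 without background subtraction, with median centring or with probes averaged, 3 with the scanner's ratios and 2 with a 1.5-fold minimum, and single arrays gave 1 to 2. The counts over all measured genes given above moved under these settings too. Each array holds both populations, so every ratio is paired by hybridisation only, and no further pairing was made. The populations came from different mice of different knock-in lines, so line and population cannot be told apart. Depth here means signal over background: with 2 arrays, and 15 of 62 members without a ratio, small differences of dim factors could not be read.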
